A study of Mus musculus with 4 samples.

Results

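The 36 genes described here mark the extraembryonic lineages of the early mouse embryo: 23 genes of the primitive endoderm and 13 of the trophoblast. They were taken by platform gene symbol from the 22180 genes that had a probe set of their own on the array, and all 36 were found. Their expression was measured in total RNA of mouse embryonic stem cells in which Prdm14 had been knocked out. Prdm14 encodes a zinc finger protein with a PR domain, active in naive stem cells and in the germ line. The control cells expressed the empty vector. The cells of the other groups expressed PRDM14, either that of the mouse, that of the sea urchin, or the sea urchin protein along with its CBFA2T. CBFA2T proteins are co-repressors, and the mouse protein CBFA2T2 is a known partner of PRDM14. All 4 groups were grown in the medium called 2i with leukemia inhibitory factor (LIF), on STO feeder cells, a mouse fibroblast line. Each group had 1 array, and all 4 arrays belonged to strip 2. The sources used here do not say whether the cells were 1 clone, which promoter drove the constructs, or whether feeder cells were removed before RNA was taken.

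The primitive endoderm and the epiblast both arise from the inner cell mass of the blastocyst. FGF signalling through ERK and the transcription factors Gata6, Gata4, Sox17 and Sox7 set up the endoderm, which then forms a visceral layer that takes up and secretes proteins and a parietal layer that lays down a thick basement membrane. The trophoblast comes from the outer cells of the embryo, where Tead4 acts upstream of Cdx2, and gives rise to the placenta. Embryonic stem cells represent the epiblast. The 2i medium blocks the kinase MEK, which lies above ERK, and GSK3, and PRDM14 is known as a factor that keeps stem cells from turning toward extraembryonic endoderm.

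The values are log2 values made by the authors with RMA, so a difference of 1 is 2-fold. Since a group is a single array, no replicate spread and no test can be given, and a difference between 2 arrays cannot be set against the spread within a group. The only scale at hand is the spread over all genes: over 12042 genes the differences had an SD between 0.16 and 0.20 in the 6 comparisons of the 4 arrays. Those 12042 genes reached 4.84 on at least 1 array, which is the median over the values of all probe sets that name 1 gene. Of the 36 genes 27 passed this filter (18 endoderm and 9 trophoblast) and 9 did not, although they are described too. Array values carry no detection call, and a difference is understated where a probe set reads mostly background. The Prdm14 probe set read 5.71 with the empty vector, 5.57 with mouse PRDM14, 5.77 with sea urchin PRDM14 and 5.53 on the CBFA2T array. It did not set the mouse PRDM14 array apart, so it gives no check of the labels, and each group name below means the array labelled with it. All 13 embryonic stem cell markers measured, of a list of 14, passed the filter.

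No endoderm or trophoblast gene was 2-fold apart between any of the 4 arrays, and none was 1.5-fold apart. At 1.5-fold the shares over all genes past the filter were 0.457% for mouse PRDM14, 0.498% for sea urchin PRDM14 and 0.822% for the CBFA2T array, each against the empty vector, 0.515% for CBFA2T added, and 0.515% for sea urchin PRDM14 and 0.739% for the CBFA2T array against mouse PRDM14. Across all genes past the filter, 0.083% were 2-fold apart between mouse PRDM14 and the empty vector, 0.0332% between sea urchin PRDM14 and the empty vector, and 0.208% between the CBFA2T array and the empty vector. Adding CBFA2T to sea urchin PRDM14 gave 0.183%. Against mouse PRDM14 the shares were 0.0581% for sea urchin PRDM14 alone and 0.183% for the CBFA2T array. Shares this low leave no room to read a count of 0 among 27 genes as a result about them. The difference between a gene's highest and lowest array had a median of 0.17 over the 27 genes past the filter and of 0.19 over all 12042 genes. Over all 36 genes it was smallest in Cubn, which lay below the filter value, at 0.07, and largest in Ets2, at 0.51, which is 1.42-fold.

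**Figure D1:**
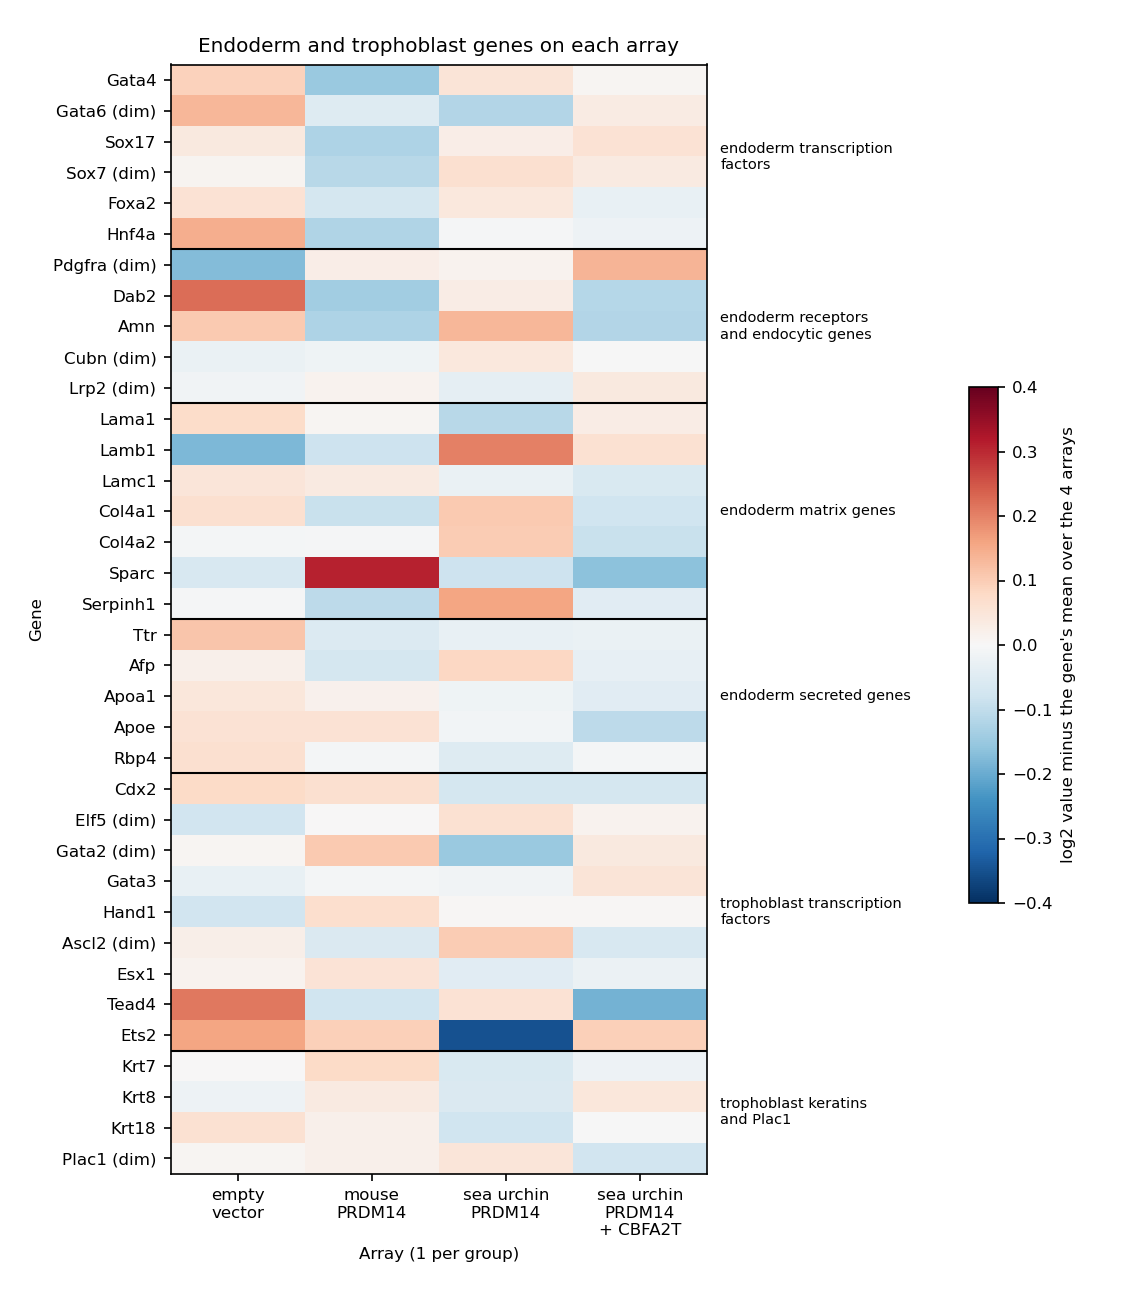
Heat map of the 36 genes (rows, by role) on the 4 arrays (columns), coloured by the log2 value minus the gene's own mean over the 4 arrays; "dim" marks the 9 genes below the filter value of 4.84. The mouse PRDM14 column is the lowest in 5 of the 6 endoderm transcription factors, Sparc stands out on that array, and Ets2 on the sea urchin PRDM14 array.

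All 6 endoderm transcription factors were lower with mouse PRDM14 than with the empty vector, by 0.12 to 0.27 on the log2 scale. Across all genes 51.5% lay below 0 in this comparison. The median of the 6 was -0.17, and that of the 4 past the filter was -0.20, beside a median of -0.005 over all genes past the filter. Hnf4a, a nuclear receptor of visceral endoderm and liver, differed most, reading 5.79 with the empty vector, 5.52 with mouse PRDM14, 5.64 with sea urchin PRDM14 and 5.62 with CBFA2T. Its mouse PRDM14 value was lower than that of the empty vector (log2 difference -0.27), and both sea urchin arrays lay between. Gata4, a zinc finger factor of the endoderm, read 6.53 with the empty vector, 6.29 with mouse PRDM14, 6.49 with sea urchin PRDM14 and 6.45 with CBFA2T. Only its mouse PRDM14 array lay apart, by -0.24 from the empty vector, while the other 3 arrays spanned 0.08.

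Foxa2, a forkhead factor of endoderm, read 7.18, 7.05, 7.17 and 7.10 in the same order of arrays, and Sox17, an HMG box factor that follows Gata6 in the primitive endoderm, read 4.87, 4.71, 4.86 and 4.89. In both genes the mouse PRDM14 array was the lowest, by 0.13 and 0.16 below the empty vector. Sox17 lay below the filter value with mouse PRDM14 and barely above it on the other arrays. Its relative Sox7 (4.70, 4.58, 4.76 and 4.73) and Gata6 (4.74, 4.55, 4.49 and 4.64), the factor that opens the endoderm programme, lay below the filter value on all 4 arrays. Sox7 was again lowest with mouse PRDM14, whereas Gata6 was lowest with sea urchin PRDM14, at -0.25 from the empty vector. Mouse PRDM14 was thus the lowest array in 5 of the 6 factors, and in the 4 of them past the filter, where 27.9% of all genes had it as the lowest array. Hnf4a was the only one of the 6 at least 1.2-fold lower, where 4.28% of all genes were.

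With sea urchin PRDM14 the differences of these 6 factors from the empty vector had a median of -0.03, and with CBFA2T added one of -0.08. Both sea urchin arrays lay above mouse PRDM14 for most of them: the median was 0.13 for sea urchin PRDM14 alone, with 5 of 6 above 0, and 0.12 with CBFA2T, with 6 of 6 above 0. The 4 factors past the filter lay above 0 in both comparisons, where 53.4% and 52.9% of all genes past the filter did. These differences use the mouse PRDM14 array that also enters the comparison with the empty vector, so a value that is low on that array by chance would appear in each of them.

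Hnf4a has 2 RefSeq promoter windows, and the first is printed because this gene had the largest difference of the factors. Windows here run from 250 bases before to 50 bases after an annotated start, on build GRCm38.p6, written 5′ to 3′ on the gene's own strand. Capitals mark matches on either strand to the GATA motif (AGATAA or AGATAG or TGATAA or TGATAG), the GC box (GGGCGG) or TATAAA. This one lies at chr2:163506607-163506906 on the plus strand and holds 1 GATA match with 1 GC box beside it. The second held no match to any of these motifs.
Hnf4a: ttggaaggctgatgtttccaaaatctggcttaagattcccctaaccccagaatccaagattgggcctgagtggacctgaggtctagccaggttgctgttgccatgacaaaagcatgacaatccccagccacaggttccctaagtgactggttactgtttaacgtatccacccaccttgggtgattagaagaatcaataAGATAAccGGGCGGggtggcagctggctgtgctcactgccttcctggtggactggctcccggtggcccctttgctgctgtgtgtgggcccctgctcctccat

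The receptor and uptake genes did not move as one. Dab2, an adaptor for endocytosis that is switched on as cells become endoderm, read 5.04 with the empty vector, 4.67 with mouse PRDM14, 4.84 with sea urchin PRDM14 and 4.70 with CBFA2T. The empty vector array was the highest, and the difference was -0.36 with mouse PRDM14, -0.19 with sea urchin PRDM14 and -0.34 with CBFA2T. Dab2 passed the filter mainly through the empty vector array, since its other 3 values lay at or below 4.84.

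Amn, which anchors the uptake receptor cubilin in the visceral endoderm membrane, read 5.62 with the empty vector and 5.65 with sea urchin PRDM14, against 5.39 with mouse PRDM14 and 5.40 with CBFA2T. The arrays thus formed a high and a low pair, 0.22 to 0.26 apart. Pdgfra, the PDGF receptor that marks the primitive endoderm, went the other way: it read 4.45 with the empty vector, 4.65 with mouse PRDM14, 4.64 with sea urchin PRDM14 and 4.76 with CBFA2T. It stayed below the filter value on all arrays, as did the uptake receptor genes Cubn (3.65 to 3.72) and Lrp2 (3.84 to 3.92), each of which spanned less than 0.08.

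Dab2 has 2 RefSeq windows. The first, at chr15:6299539-6299838 on the plus strand, holds 2 GATA matches, 1 of each orientation, and is shown because Dab2 was the endoderm gene furthest below the empty vector. The other window held no match to the 3 motifs.
Dab2: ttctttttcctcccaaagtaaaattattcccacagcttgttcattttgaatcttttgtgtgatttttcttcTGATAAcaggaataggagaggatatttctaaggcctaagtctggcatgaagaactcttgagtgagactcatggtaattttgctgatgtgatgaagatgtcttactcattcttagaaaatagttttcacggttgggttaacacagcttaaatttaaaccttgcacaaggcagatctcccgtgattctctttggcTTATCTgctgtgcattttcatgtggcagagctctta

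The 7 basement membrane genes all passed the filter, and Sparc and Lamb1 among them had the widest spans of the endoderm genes. Sparc, a secreted collagen-binding protein abundant in parietal endoderm, read 6.68 with the empty vector, 7.05 with mouse PRDM14, 6.66 with sea urchin PRDM14 and 6.58 with CBFA2T. Mouse PRDM14 alone was high, by 0.37 over the empty vector and by 0.47 (1.38-fold) over the CBFA2T array, opposite to the endoderm transcription factors on that array. Lamb1, the laminin beta chain gene, read 5.43 with the empty vector, 5.53 with mouse PRDM14, 5.82 with sea urchin PRDM14 and 5.68 with CBFA2T. Both sea urchin arrays were the higher ones, and sea urchin PRDM14 lay 0.38 (1.30-fold) above the empty vector.

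The other laminin chain genes did not follow Lamb1, although the chains are joined in 1 protein. Lama1 was lowest with sea urchin PRDM14 (5.12, against 5.23 to 5.30 on the other arrays), and Lamc1 lay between 6.27 and 6.38 on all 4. Serpinh1, a collagen chaperone of the endoplasmic reticulum, read 6.92 with the empty vector, 6.82 with mouse PRDM14, 7.08 with sea urchin PRDM14 and 6.88 with CBFA2T, the sea urchin PRDM14 array being the highest by 0.16 over the empty vector.

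Col4a1 and Col4a2 encode the collagen IV chains and lie head to head on chromosome 8. Col4a1 read 6.12 with the empty vector, 5.96 with mouse PRDM14, 6.16 with sea urchin PRDM14 and 5.97 with CBFA2T. Col4a2 read 5.81, 5.81, 5.92 and 5.73 in the same order. Both were highest with sea urchin PRDM14, and on the CBFA2T array both differed from that by -0.19. On the mouse PRDM14 array they parted, with a difference of -0.15 from the empty vector in Col4a1 and of 0.003 in Col4a2. Their annotated starts are 21 bases apart, so their promoter windows share 78 bases, chr8:11312777-11312854, printed in capitals in both because the pair shares this stretch. The Col4a1 window is chr8:11312777-11313076 on the minus strand, and that of Col4a2 is chr8:11312555-11312854 on the plus strand. They hold 1 and 3 GC boxes and no GATA match.
Col4a1: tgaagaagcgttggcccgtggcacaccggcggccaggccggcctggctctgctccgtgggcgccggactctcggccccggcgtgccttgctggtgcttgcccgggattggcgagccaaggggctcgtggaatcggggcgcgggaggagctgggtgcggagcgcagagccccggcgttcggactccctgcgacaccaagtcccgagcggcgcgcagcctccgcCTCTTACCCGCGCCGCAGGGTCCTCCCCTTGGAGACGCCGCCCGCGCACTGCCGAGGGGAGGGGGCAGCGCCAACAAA
Col4a2: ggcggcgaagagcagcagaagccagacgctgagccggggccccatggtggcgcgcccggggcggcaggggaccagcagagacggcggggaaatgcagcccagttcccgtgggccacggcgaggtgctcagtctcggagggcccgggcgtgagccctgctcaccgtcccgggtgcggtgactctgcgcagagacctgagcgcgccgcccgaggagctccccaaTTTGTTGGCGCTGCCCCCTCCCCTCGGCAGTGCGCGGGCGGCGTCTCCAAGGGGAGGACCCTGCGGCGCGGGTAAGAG

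The windows of the other 2 matrix genes that differed most are shown for comparison, with motif matches in capitals. That of Lamb1, chr12:31265043-31265342 on the plus strand, holds 2 GC boxes. That of Sparc, chr11:55420031-55420330 on the minus strand, held no match to the 3 motifs.
Lamb1: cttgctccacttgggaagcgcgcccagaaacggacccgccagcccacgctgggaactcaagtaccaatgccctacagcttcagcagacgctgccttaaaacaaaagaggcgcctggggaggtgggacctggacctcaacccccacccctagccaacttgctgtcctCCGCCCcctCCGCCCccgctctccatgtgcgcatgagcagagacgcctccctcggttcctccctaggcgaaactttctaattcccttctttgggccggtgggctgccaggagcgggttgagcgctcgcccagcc
Sparc: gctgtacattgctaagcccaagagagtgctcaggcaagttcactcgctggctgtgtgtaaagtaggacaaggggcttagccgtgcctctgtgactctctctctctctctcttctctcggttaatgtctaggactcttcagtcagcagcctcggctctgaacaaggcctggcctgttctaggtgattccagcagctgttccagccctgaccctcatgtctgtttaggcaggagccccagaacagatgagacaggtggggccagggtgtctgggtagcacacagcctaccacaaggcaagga

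With CBFA2T added to sea urchin PRDM14, 6 of the 7 matrix genes lay below 0, with a median of -0.14 and Lama1 (0.14) as the exception. Over all genes 50% lay below 0 in this comparison and the median was -0.0001. Against the empty vector 6 of the 7 were again lower on the CBFA2T array (median -0.08, beside 48.4% of all genes below 0), with Lamb1 (0.24) as the exception. These comparisons share the CBFA2T array. Against mouse PRDM14, however, 4 of the 7 lay above 0 on that array (median 0.008), beside 52.9% of all genes. The sea urchin PRDM14 array was the highest of the 4 arrays in 4 of the 7 genes. A value high on the sea urchin PRDM14 array alone would also lie below 0 with CBFA2T added. STO feeder cells are fibroblasts, which make several of these proteins, and fewer cells of a type and less RNA per cell cannot be told apart in bulk RNA. Of the 25 feeder markers 24 were measured and 17 passed the filter, and their summed linear signal was 1215 with the empty vector, 1225 with mouse PRDM14, 1200 with sea urchin PRDM14 and 1174 with CBFA2T. With CBFA2T added, 13 of the 17 lay below 0, with a median of -0.05. The other 4 lay above 0, Col1a1 the most, by 0.28 (5.71 and 5.99). Twist2, Dcn, Lum, Lox, Fap, Postn and S100a4 lay below the filter value. The part of feeder cells in the matrix gene differences was not tested.

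The 5 secreted proteins of visceral endoderm had the smallest median span over the 4 arrays of the endoderm groups, 0.15, beside 0.19 for the matrix genes. All 5 passed the filter, and none spanned more than 0.17 over the 4 arrays. Ttr, the thyroxine and retinol transport protein transthyretin, read 5.66 with the empty vector and 5.49 to 5.52 on the other 3 arrays. Apoe, a lipid carrier, read 7.33 with the empty vector and with mouse PRDM14, 7.26 with sea urchin PRDM14 and 7.17 with CBFA2T. The empty vector array was the highest of the 4 in 4 of the 5 genes, in Apoe by less than these decimals show, against 24.5% of all genes past the filter. The fifth, Afp, the fetal albumin-like protein, ran from 5.63 with mouse PRDM14 to 5.78 with sea urchin PRDM14. Rbp4, the retinol carrier, lay between 5.62 and 5.74, and Apoa1, the main protein of high-density lipoprotein, between 6.16 and 6.26.

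**Figure D2:**
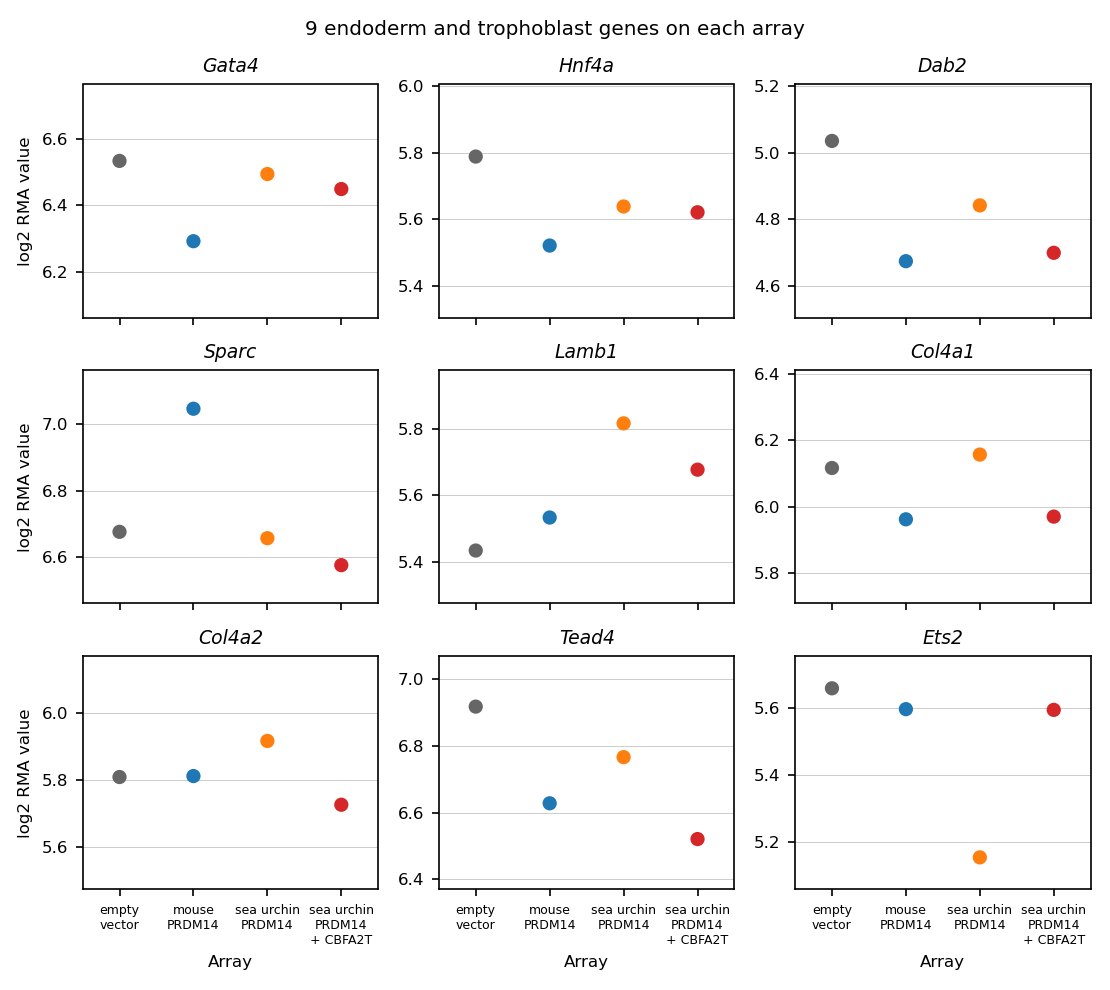
Log2 RMA values of 9 genes (panels) on each of the 4 arrays (x axis, 1 point per array, no error bar because each group has 1 array); every y axis spans the same log2 width around a different centre. Mouse PRDM14 is the lowest point for Gata4, Hnf4a and Dab2 and the highest for Sparc, sea urchin PRDM14 is the highest for Lamb1, Col4a1 and Col4a2, and Ets2 is low on the sea urchin PRDM14 array alone.

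Among the trophoblast transcription factors, Ets2 and Tead4 differed most. Ets2, an ETS factor needed for trophoblast growth, read 5.66 with the empty vector, 5.60 with mouse PRDM14, 5.15 with sea urchin PRDM14 and 5.60 with CBFA2T. Only the sea urchin PRDM14 array was low, by -0.51 from the empty vector and by -0.45 from mouse PRDM14, and with CBFA2T added the value was 0.44 higher. It was the only trophoblast gene past the filter at 1.2-fold lower with sea urchin PRDM14 against the empty vector, where 3.4% of all genes were. Its window, chr16:95702157-95702456 on the plus strand, is shown because Ets2 had the largest difference of the 36 genes. It holds 1 GC box, in capitals.
Ets2: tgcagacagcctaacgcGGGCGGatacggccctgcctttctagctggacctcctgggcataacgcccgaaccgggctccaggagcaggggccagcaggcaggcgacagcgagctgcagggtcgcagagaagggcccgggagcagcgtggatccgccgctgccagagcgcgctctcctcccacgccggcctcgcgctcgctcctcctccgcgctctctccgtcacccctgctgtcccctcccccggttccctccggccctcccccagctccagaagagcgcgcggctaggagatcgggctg

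Tead4, the factor upstream of Cdx2, read 6.92 with the empty vector, 6.63 with mouse PRDM14, 6.77 with sea urchin PRDM14 and 6.52 with CBFA2T. The empty vector array was the highest, and all 3 PRDM14 arrays lay lower, by -0.29, -0.15 and -0.40. Cdx2, which directs the trophectoderm, read 6.14 with the empty vector and 6.13 with mouse PRDM14, and 5.99 on both sea urchin arrays, a gap of 0.13 to 0.15 between the pairs. Hand1, a factor of giant cells, differed by 0.14 between mouse PRDM14 (6.34) and the empty vector (6.20), with 6.28 on both sea urchin arrays.

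Gata3, a trophoblast factor, has 2 probe sets, 1 between 5.95 and 6.03 and another between 5.36 and 5.47. The placental homeobox gene Esx1 lay between 4.89 and 4.99. The remaining 3 factors stayed below the filter value: Elf5 (4.08 to 4.21), which keeps trophoblast stem cells, Ascl2 (4.40 to 4.56), a factor of the spongiotrophoblast, and Gata2 (3.70 to 3.95), a partner of Gata3. Among these 3, Gata2 had the widest span, 0.25, and was lowest with sea urchin PRDM14.

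The keratin genes spanned less than 0.15 at the probe sets used. Krt8 and Krt18, which pair into the filaments of simple epithelia, read 6.26 to 6.36 and 5.30 to 5.44, and Krt7, another keratin of such epithelia, 6.15 to 6.29. All 3 were lowest with sea urchin PRDM14, where 22.4% of all genes past the filter had that array as the lowest. A second Krt18 probe set read 4.75, 4.68, 4.65 and 4.92, with the CBFA2T array as the highest, whereas the first had the empty vector as the highest array. The sources used here do not give which part of the gene each probe set reads. Plac1, a placental membrane protein, stayed between 4.06 and 4.18, below the filter value.

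As lists, most endoderm genes lay below 0 with mouse PRDM14, and the trophoblast genes lay around 0. Against the empty vector 15 of the 18 endoderm genes past the filter lay below 0 (median -0.10), beside 51.5% of all genes, and 4 of the 9 trophoblast genes did. The trophoblast median was 0.02, which became -0.002 when a gene's probe sets were averaged. Counting all 23 endoderm and 13 trophoblast genes, dim ones included, 17 and 5 lay below 0, with medians of -0.09 and 0.02. Past 1.2-fold, Hnf4a, Dab2 and Tead4 were lower (4.28% of all genes) and Sparc was higher (4.07%). Dab2 passed the filter mainly through its high empty vector value, which favours a lower value on the other arrays. Whether the lists differ from one another was not tested.

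With sea urchin PRDM14 both lists lay close to the empty vector: 12 of 18 endoderm genes lay below 0 (median -0.03) and 7 of 9 trophoblast genes (median -0.06), where 48.4% of all genes did. Past 1.2-fold were Ets2, lower, and Lamb1, higher, where 5.02% of all genes were higher. With CBFA2T as well, 16 of 18 endoderm genes (median -0.09) and 6 of 9 trophoblast genes (median -0.04) lay below 0, again beside 48.4% of all genes. Counting all 23 endoderm genes, dim ones included, 17 lay below 0. Tead4 and Dab2 were past 1.2-fold there, both lower, beside 4.45% of all genes. The limit on Dab2, which passed the filter mainly through the empty vector array, holds here too. Of the dim genes Pdgfra was higher, by 0.31, where 6.26% of the genes past the filter were. These 3 comparisons share the empty vector array, which was the highest of the 4 in 14 of the 27 genes past the filter, against 24.5% of all genes. A value that is high on that array alone would show in each of them.

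What CBFA2T adds to the sea urchin protein is asked by setting the CBFA2T array against sea urchin PRDM14 alone. Of the 18 endoderm genes 14 lay below 0 (median -0.08), and of the 9 trophoblast genes 2 did (median 0.04), beside 50% of all genes. Ets2 alone was past 1.2-fold, higher, where 3.78% of all genes were. The mouse PRDM14 minus empty vector difference shares no array with this one, and 17 of the 27 genes had the same sign in both, against 52.1% of all genes. The values below give mouse PRDM14 first and CBFA2T added second. Of the genes with the same sign, Dab2 differed by -0.36 and -0.14, Amn by -0.23 and -0.25, Col4a1 by -0.15 and -0.19, and Tead4 by -0.29 and -0.25. Sparc differed by 0.37 and -0.08 and Ets2 by -0.06 and 0.44, with opposite signs in both genes. Signs were also opposite in Sox17 (-0.16 and 0.03), Lama1 (-0.07 and 0.14), Lamb1 (0.10 and -0.14) and Rbp4 (-0.07 and 0.04). The same held for Ttr, Col4a2 and Krt18. Hand1 (0.14 and 0.0000) was not counted as having the same sign. The count rests in part on differences close to 0. Apoe (-0.0000 and -0.09) and Cdx2 (-0.01 and -0.001) were counted as the same, and Col4a2 (0.003 and -0.19) as opposite.

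Set directly against mouse PRDM14, the 2 lists lay on opposite sides on the sea urchin PRDM14 array, with medians of 0.11 for endoderm (12 of 18 above 0, beside 53.4% of all genes) and -0.10 for trophoblast (1 of 9 above 0). Sparc (-0.39) and Ets2 (-0.45) were past 1.2-fold and lower, where 3.93% of all genes were, and Lamb1 (0.28) was higher, where 5.6% were. With CBFA2T the medians were 0.02 for endoderm (12 of 18 above 0, beside 52.9% of all genes) and -0.06 for trophoblast (2 of 9 above 0). Sparc alone was past 1.2-fold there, lower, beside 4.2% of all genes.

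**Figure D3:**
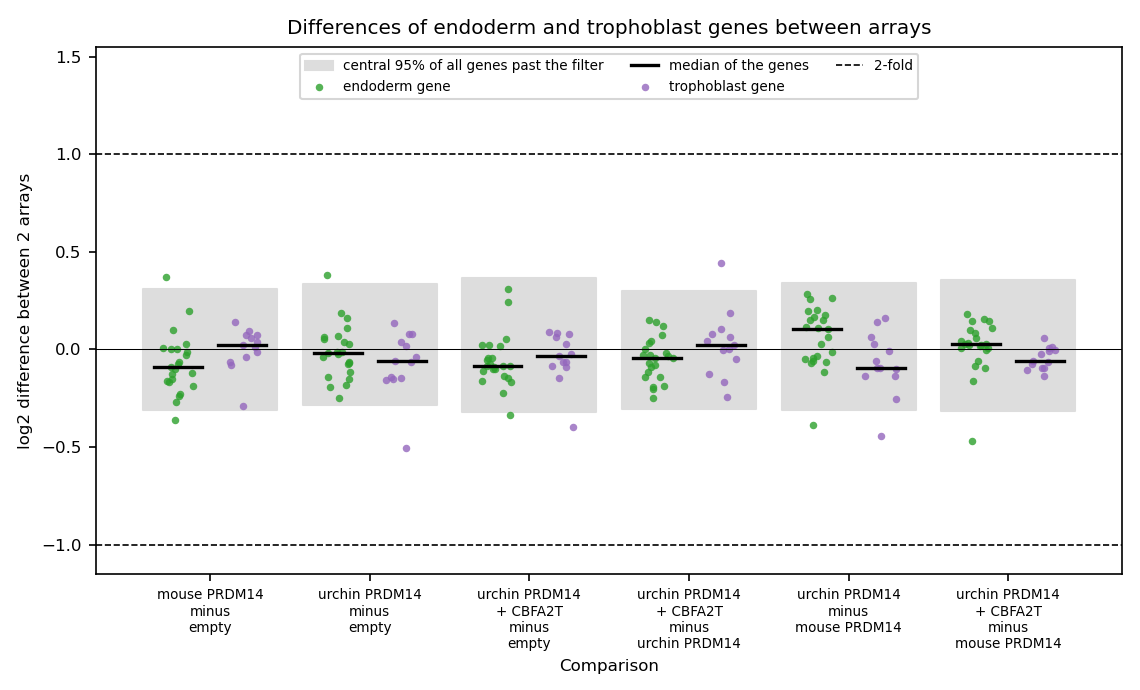
Log2 differences between 2 arrays (y axis) of the 23 endoderm and 13 trophoblast genes (points, dim genes included) in the 6 comparisons (x axis), with the median of each list (black bars), the central 95% of the differences of all 12042 genes past the filter (grey) and 2-fold (dashed). No point reaches 2-fold, and most lie within the grey band; Ets2 and Sparc are among the few outside it.

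Genes of the same programmes outside the 36 were read from lists of their own. Of 30 other endoderm genes 28 were measured and 24 passed the filter; against the empty vector their median was -0.04 with mouse PRDM14, 0.002 with sea urchin PRDM14 and -0.04 with CBFA2T, and none was 2-fold apart on any 2 arrays. Against the empty vector 16 of the 24 lay below 0 with mouse PRDM14, beside 51.5% of all genes. With sea urchin PRDM14 12 did and on the CBFA2T array 15, beside 48.4% of all genes in both comparisons. The largest difference was in Fn1, the matrix protein fibronectin, at -0.80 between the CBFA2T array (7.30) and mouse PRDM14 (8.09). Of 28 other trophoblast genes 25 were measured and 16 passed, with medians of 0.005, -0.03 and -0.05 in the same order; Peg10, an imprinted placental gene, differed most, by -0.61 between mouse PRDM14 (6.87) and the empty vector (7.47). Among 16 genes of FGF and ERK signalling, all measured and 14 past the filter, 12 lay below 0 with mouse PRDM14 (median -0.11, beside 51.5% of all genes). On the sea urchin PRDM14 array 6 of those 14 did (median 0.009) and on the CBFA2T array 8 (median -0.05), beside 48.4% of all genes in both comparisons. Their largest difference was in the FGF receptor gene Fgfr1, 0.54 higher with CBFA2T (6.65) than with mouse PRDM14 (6.11).

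Other cell states were read on the same arrays. The summed linear signal of the 13 stem cell markers was 2024 with the empty vector, 2099 with mouse PRDM14, 2010 with sea urchin PRDM14 and 2006 with CBFA2T, and only Tdgf1, a Nodal co-receptor, was 2-fold apart between any of the arrays (-1.16 with CBFA2T added). Markers of 2-cell-like cells, a rare state of stem cell cultures, set the CBFA2T array apart: their summed signal over 10 measured genes of 12 was 958 there, against 180, 202 and 184 with the empty vector, mouse PRDM14 and sea urchin PRDM14. Against the empty vector Zscan4e (4.25), Zscan4b (3.93), Zscan4d (2.25), Zscan4c (2.16) and Usp17le (1.75) were higher, and against mouse PRDM14 Tcstv3 (1.07) was past 2-fold too. Tcstv3 was dim on all arrays. Tcstv1, dim as well, was higher by 0.61 on the CBFA2T array than with the empty vector. The remaining measured markers of the list showed no such rise. Against the empty vector Usp17la differed by 0.09 on the CBFA2T array, and the dim genes Zfp352 and Tdpoz4 by -0.14 and -0.19. Zscan4b, Zscan4d, Zscan4e and Usp17le lay below the filter value on the other arrays and passed it through the CBFA2T array alone. Whether the higher markers have a part in the endoderm differences of the CBFA2T array was not tested. Among the feeder markers Fap differed most, by -0.40 between the CBFA2T array and the empty vector.

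**Figure D4:**
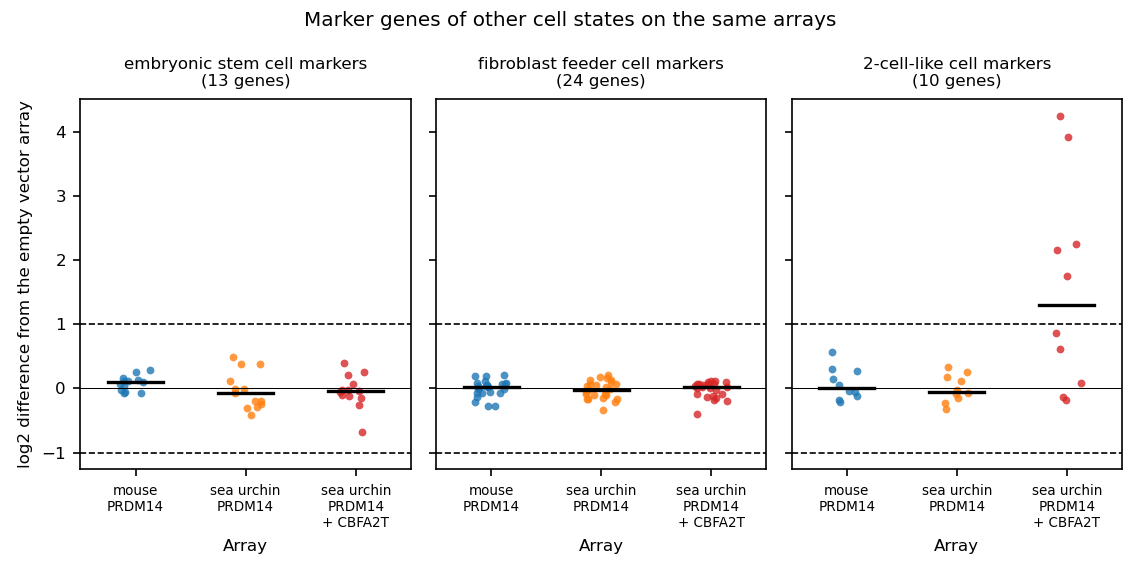
Log2 differences from the empty vector array (y axis) of the measured markers of stem cells, feeder fibroblasts and 2-cell-like cells (panels) on the 3 other arrays (x axis), with medians as black bars and 2-fold as dashed lines. Stem cell and feeder markers stay within 2-fold, and 5 markers of 2-cell-like cells exceed it with CBFA2T.

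RefSeq promoter windows were found for 27 of the 36 genes, 37 windows in all, so some genes count more than once. Gata4, Gata6, Sox17, Sox7, Lama1, Lamc1, Ttr, Hand1 and Tead4 had none. Of the endoderm transcription factors only Foxa2 and Hnf4a enter the shares below. A GATA motif was in 5 of 23 endoderm windows (21.7%) and 4 of 14 trophoblast windows (28.6%), beside 29.8% of all 32851 windows. The GC box was in 47.8% and 50% of them, beside 35.7%, and TATAAA in 17.4% and 7.14%, beside 13.6%. Matches were counted on both strands, and the motifs may overlap one another. These counts describe letters in the window and say nothing of binding.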

How the data were processed

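Total RNA was hybridised to 4 GeneAtlas arrays, 1 per group. The deposited values are log2 values of 41345 probe sets made by the authors with RMA, as the submitters' processing notes state. The method corrects background, equalises the arrays' distributions and summarises probes, so a shift of most genes on 1 array would not show. The version of RMA, which arrays were normalized with one another, and the build are not stated in those sources. A different strip that the design text mentions was not used here.

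Of the probe sets, 23521 had 1 gene, 1814 several and 16010 none in the platform annotation. All 36 members matched the RefSeq gene table (GRCm38.p6) by Entrez identifier. A gene took its probe set with the highest mean; Gata3 and Krt18 had 2, and Gata3 also shares a probe set with other genes that was left out. A gene was kept when its highest array reached 4.84, which lets a gene bright on 1 array pass through that array. Differences were called at 2-fold and also counted at 1.2-fold. No test was made.

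All members, the targeted gene and, of each other list, the genes past 2-fold or else the 1 with the largest difference were named. Eomes, Fgfr2 and Fgf4 stood on 2 lists each. The members and lists were chosen with earlier results of these data known. Median differences, counts and promoter matches used Python 3.11.15, numpy 2.4.6 and pandas 2.3.3; cyclic loess used limma 3.58.1 in R 4.3.3. The counting was tested on simulated data. The alternatives were no filter, a filter at 5.65, cyclic loess, the mean of all probe sets, and thresholds of 1.5-fold and 1.2-fold. Sequences are from RefSeq.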

Additional observations from a re-analysis of the deposited data

How the results depend on the processing

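The count of 0 genes past 2-fold held in all 6 comparisons with no filter, after cyclic loess and at 1.5-fold. It held with the stricter filter and the mean of all probe sets too. A stricter filter only removes genes, however, and averaging alters only Gata3 and Krt18, so these 2 say little. At 1.2-fold the count became 4 for mouse PRDM14, 2 for sea urchin PRDM14 and 2 for the CBFA2T array, each against the empty vector. It became 1 with CBFA2T added to sea urchin PRDM14. Against mouse PRDM14 it became 3 for sea urchin PRDM14 and 1 for the CBFA2T array. The 12 list medians kept their sign in all alternatives with 1 exception, the trophoblast median for mouse PRDM14 against the empty vector (-0.002 when probe sets were averaged). Of 216 single differences, 3 changed sign after cyclic loess and 4 with the mean of all probe sets; those 4 were in Gata3 and Krt18. No median or single difference moved by more than the SD across genes. That SD, 0.16 to 0.20, is larger than each of the 12 medians. A median could thus vanish or change sign within it, and this limit does not show that the medians are stable. No paired analysis was possible because each group has 1 array. Leaving out an array removes its group, so it was not run. How far genes below the filter value, among them Gata6, Sox7 and Pdgfra, lie above background is unknown, and where a probe set reads mostly background a difference is understated.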
